A study of Mus musculus with 816 samples.

Results

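The chemokine cultures of the stimulus panel were 25 wells of primary mouse microglia given CCL2 (8 cultures), CCL7 (9 cultures) or eotaxin (8 cultures) as the only stimulus for 24 h. They were chosen by their labelled treatment and time, and by no measured value, from 784 cultures in a series of 816 samples. Each chemokine, and the 3 together, was compared with the 40 cultures that received no stimulus and were collected at 24 h. CCL2 and CCL7 were given at 100 ng/ml (0.0001 µg/µl) and eotaxin at 50 ng/ml, so CCL2 and CCL7 could be compared with each other, and eotaxin is set beside them without a comparison. The labels name the last ligand only as eotaxin, the usual name of CCL11. The cells were commercial microglia from the neonatal mouse brain, kept in 96-well plates and stimulated 4 days after plating, and the untreated wells had the same origin. Such cultures are kept apart from the neurons and glia that surround microglia in the brain, and other cell types in the wells are described below by marker genes. Wells of a plate carried the same source ID, and the labels name no animal for a well. They are therefore not counted as separate animals.

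CCL2 (MCP-1), CCL7 (MCP-3) and eotaxin are small secreted proteins of the CC chemokine family that guide leukocytes along a gradient. They act on receptors with 7 membrane-spanning segments coupled to inhibitory G proteins. CCL2 signals through CCR2, CCL7 through CCR2, CCR1 and CCR3, and eotaxin mainly through CCR3. The first events after receptor binding are calcium release, actin remodelling and receptor desensitisation, and CCR2 is best known from monocytes, CCR3 from eosinophils. Atypical receptors bind the same ligands and clear them without a G protein signal.

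The 65 cultures carried 3 source IDs, whose meaning the header does not give. They came from 6 culture plates and 11 library pools, and none of the chemokines was present on every plate. CCL2 was on plates 2, 4 and 8, CCL7 on plates 2, 3 and 7, and eotaxin on plates 1, 2 and 3, while untreated wells were on all 6. Depth, read from the step between the low values of each culture, ran from 1.09 to 24.8 M mapped reads (M for 1e6), with medians of 5.70 M for CCL2, 6.64 M for CCL7, 3.94 M for eotaxin and 5.36 M for untreated cultures, so 1 read was worth 0.918 CPM in the shallowest culture and 0.0403 CPM in the deepest. CPM give a gene's share of the culture's mapped reads, scaled to 1e6, with no correction for transcript length, so levels are compared only within a gene. A culture had 7909 to 9753 genes over 5 CPM. Plates differed widely: among the 40 untreated cultures alone, 5599 of 11867 genes (47.2%) differed between plates (limma, adjusted p under 0.05). Wells at the rim of a plate also differed from those in the middle, in 192 genes (1.62%) of untreated cultures, and rim wells made up 10 of the 40 untreated, 3 CCL2, 2 CCL7 and 2 eotaxin cultures. Plate was therefore a term of every fit, and the rim position was added as an alternative. All 3 untreated wells of plate 2 were rim wells, while 7 of the 9 chemokine wells there were not.

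Most of a set of 13 microglia markers were detected in the 65 cultures, at widely differing levels. Of 13 markers, 10 had a median above 5 CPM, among them Csf1r, the receptor for colony-stimulating factor 1, at 3518 CPM, the complement gene C1qa at 1296 CPM and Trem2, a lipid-sensing receptor, at 789 CPM. The lowest of the 10 were Gpr34 at 7.35 CPM and Tmem119 at 12.4 CPM. The 3 that did not reach 5 CPM were P2ry12 at 4.15 CPM, Sall1 at 0.363 CPM and Siglech, which was listed at 0 in the median culture. Summed over the 13 markers, levels were 4940 to 11996 CPM in untreated, 4918 to 8898 in CCL2, 5662 to 11302 in CCL7 and 4649 to 7444 in eotaxin cultures. For neutrophils, neurons, lymphocytes, and eosinophils with basophils and mast cells, no marker had a median above 5 CPM. Fibroblast markers varied most, with sums of 0.650 to 1284 CPM in untreated, 3.91 to 218 in CCL2, 30.9 to 394 in CCL7 and 45.0 to 513 in eotaxin cultures. Of the 8 perivascular macrophage markers 3 had a median above 5 CPM, Pf4 at 198, Mrc1 at 80.9 and Cbr2 at 28.8 CPM. Their list summed to 121 to 472 CPM over the 65 cultures. Of the 8 monocyte markers 3 had such a median, with sums of 23.3 to 221 CPM. A median above 5 CPM was also reached by 4 of 10 oligodendrocyte lineage markers, with sums of 45.7 to 156 CPM. It was reached by 2 of 7 endothelial markers (27.1 to 187 CPM) and by 1 of 8 astrocyte markers (6.06 to 51.2 CPM). In bulk samples, fewer cells of a type and less RNA per cell cannot be told apart.

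The genes for the ligands themselves were low, and their level followed the plate. Ccl2 (GRCm38 chromosome 11, 82035571 to 82037453) and Ccl7 (chromosome 11, 82045712 to 82047525) were the only members of 6 MCP and eotaxin ligand genes with enough reads to be tested, and Ccl11 (chromosome 11, 82057823 to 82062955) was listed at 0 in all 65 cultures. Ccl2 was at 27.8, 22.9 and 11.2 CPM in the CCL2 cultures of plate 2, at 11 CPM on plate 4, and at 6.38, 6.98, 8.15 and 6.47 CPM on plate 8. With CCL7 it was at 9.59, 27.2 and 28 CPM on plate 2, at 0.15, 1.65 and 4.59 CPM on plate 3, and at 5.25, 4.23 and 2.63 CPM on plate 7. With eotaxin it was at 31.1, 82.8 and 108 CPM on plate 1, at 30.9, 23.4 and 35.6 CPM on plate 2, and at 2.82 and 0.174 CPM on plate 3. The plates kept the same order in untreated wells, where the median of Ccl2 was 28 CPM on plate 1, 7.54 on plate 2, 2.70 on plate 3, 3.76 on plate 7 and 6.12 on plate 8, apart from plate 4 at 19.5 CPM, above plate 2. Chemokine and untreated cultures overlapped. The log2 fold change of Ccl2 was 0.10 ± 0.33 (SE) with CCL2, 0.03 ± 0.32 with CCL7 and 0.45 ± 0.33 with eotaxin, and that of Ccl7 was 0.13 ± 0.32, 0.01 ± 0.31 and 0.49 ± 0.32 (limma, adjusted p at least 0.956 for all 6).

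Transcripts of the main receptors of these ligands were at the edge of detection. Ccr2 (chromosome 9, 124101950 to 124113557) was listed at 0 in 17 of 65 cultures and exceeded 5 CPM in 3, with a maximum of 14.7 CPM. Ccr3 (chromosome 9, 124021972 to 124031689) was listed at 0 in 32 of 65 cultures and exceeded 5 CPM in 3, 1 of them an eotaxin culture at 10.0 CPM with 1.49 M reads. Neither reached the level at which a gene was tested, more than 5 CPM in at least 4 cultures. Ackr2, an atypical receptor that scavenges inflammatory CC chemokines, was listed at 0 in 63 of 65 cultures, and Ccr6, Ccr8 and Ackr1 in all 65. Of 18 chemokine receptor genes 7 were tested, and of 5 atypical receptor genes 1.

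Ccr1 (chromosome 9, 123962124 to 123968692), a receptor for CCL7 and other CC ligands, was detected in most cultures and depended on the plate. With CCL2 it was at 41.4, 32.2 and 29.95 CPM on plate 2, where untreated wells reached 17.1 to 23.8 CPM, at 3.40 CPM on plate 4, where they held 5.90 to 21.9 CPM, and at 0.0742, 0.303, 0 and 0 CPM on plate 8, where they ranged from 0 to 7.42 CPM. The CCL2 cultures thus lay above the untreated wells on plate 2, below all of them on plate 4 and at their low end on plate 8. The fitted log2 fold change was −0.63 ± 0.30 (limma, p = 0.0400, adjusted p = 0.640), with 5 of 8 cultures below the untreated mean of their plate. With CCL7, Ccr1 ranged from 6.32 to 35.6 CPM (0.24 ± 0.29), and with eotaxin from 7.13 to 45.9 CPM (0.14 ± 0.30).

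Cx3cr1, the fractalkine receptor of microglia, had a median of 328 CPM with CCL2, 458 with CCL7 and 301 with eotaxin against 380 CPM untreated, and log2 fold changes of −0.25 ± 0.25, 0.20 ± 0.24 and −0.47 ± 0.25. Cxcr5, best known as the CXCL13 receptor of B cells, had log2 fold changes of −0.76 ± 0.37, −0.75 ± 0.36 and −0.19 ± 0.37, with adjusted p of at least 0.654. None of the 8 tested receptor genes passed the adjusted threshold with any chemokine.

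**Figure D1:**
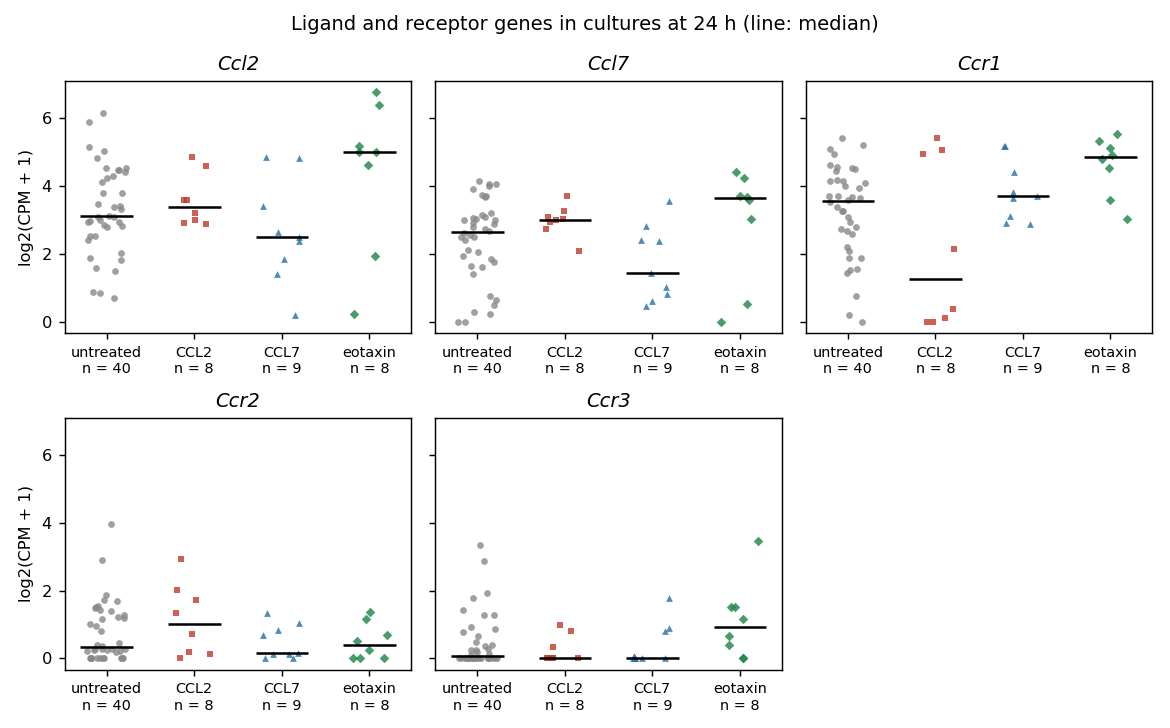
Expression of 2 ligand genes and 3 receptor genes on the y axis as log2(CPM + 1), 1 point per culture, by stimulus on the x axis, with a line at the median. Ccr2 and Ccr3 sit at or near 0 in most of the 65 cultures, and Ccr1 with CCL2 splits into a high set (plate 2) and a low set (plates 4 and 8).

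With CCL2, 2 of 11867 tested genes passed an adjusted p of 0.05 (0.0169%). Il6ra, which encodes the receptor subunit that binds IL6, was higher, and Ints7, which encodes a subunit of the Integrator complex that processes nuclear RNA, was lower. At an unadjusted p under 0.05 there were 875 genes (7.37%), of which 378 were higher (3.19%) and 497 lower (4.19%). The 95% interval of the fold change lay within 2-fold for 71.9% of tested genes, and for 86.2% of those above a mean of 10 CPM.

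Il6ra (chromosome 3, 89864059 to 89913196, minus strand) was at 90.7, 76.2 and 89.9 CPM in the CCL2 cultures of plate 2, at 79.1 CPM on plate 4, and at 83.4, 122, 186 and 138 CPM on plate 8. Untreated wells ranged from 49.2 to 81.8 CPM on plate 2, from 12.33 to 77.4 on plate 4 and from 13.8 to 87.5 on plate 8. All 8 cultures were above the untreated mean of their plate, a pattern shown by 216 of 11867 genes (1.82%), but the ranges overlapped on plates 2 and 8. The means were 108 ± 38.2 CPM (SD, n = 8) against 44.0 ± 21.6 (n = 40), with a log2 fold change within plates of 1.27 ± 0.26 (limma, adjusted p = 0.0493). Without plate 8 the log2 fold change of Il6ra with CCL2 was 0.60 and no longer passed, and without plate 4 it was 1.26 and did not pass either. It also missed the threshold with library pool in place of plate (0.99), without CCL2 replicate 4, 5, 6, 7 or 8 (1.12 to 1.28), and with the rim position as a term (1.25, limma adjusted p = 0.0592). Rim wells of untreated cultures had a median Il6ra of 63.2 CPM and middle wells 35.4 CPM, and 3 of the 8 CCL2 wells were at the rim. The gene overlaps an antisense transcript, Gm42809.

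Ints7 (chromosome 1, 191575636 to 191623688, plus strand) was at 8.97, 10.8 and 8.44 CPM with CCL2 on plate 2, at 9.90 CPM on plate 4, and at 4.62, 5.53, 0 and 7.65 CPM on plate 8. Untreated wells ranged from 9.07 to 21.3 CPM on plate 2, from 9.07 to 24.8 on plate 4 and from 10.7 to 29 on plate 8, so the groups separated fully on plate 8 only. All 8 cultures were below the untreated mean of their plate, which held for 171 genes (1.44%). The log2 fold change was −1.40 ± 0.28 (limma, adjusted p = 0.0432), from 6.98 ± 3.50 CPM (SD, n = 8) against 16.9 ± 6.03 (n = 40). Without plate 8 that of Ints7 with CCL2 was −0.74, and the call was also lost without plate 4 (−1.59), without CCL2 replicate 5, 6 or 7 (−1.42 to −1.04), with library pool as the term (−1.27) and with the rim position (−1.39, limma adjusted p = 0.0548). The culture at 0 CPM had 3.07 M reads. Another annotated transcript, Gm37349, lies within Ints7 on the same strand.

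The next genes by p with CCL2 did not pass the adjustment. Among higher values were Mgme1, a mitochondrial exonuclease (1.34 ± 0.35, limma adjusted p = 0.231), Pdzd8, a protein of membrane contact sites (0.86 ± 0.21, 0.167), the transcription factor Tcf3 (0.86 ± 0.23, 0.233) and Zswim4 (0.81 ± 0.22, 0.315). Pdzd8 was above the untreated mean of its plate in 8 of 8 cultures and Tcf3 in 7 of 8. Among lower values were Rxrb, a retinoid X receptor (−0.68 ± 0.15, adjusted p = 0.0751), Commd9 (−1.22 ± 0.27, 0.0751), the complement gene C1qb (−0.47 ± 0.11, 0.164) and Olfml3, a secreted protein marking microglia (−0.75 ± 0.18, 0.172), each below the untreated mean of its plate in 8 of 8 cultures. Rxrb was between 36 and 53.2 CPM with CCL2 and had a median of 71.5 CPM, from 32.1 to 113, in untreated cultures.

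**Figure D2:**
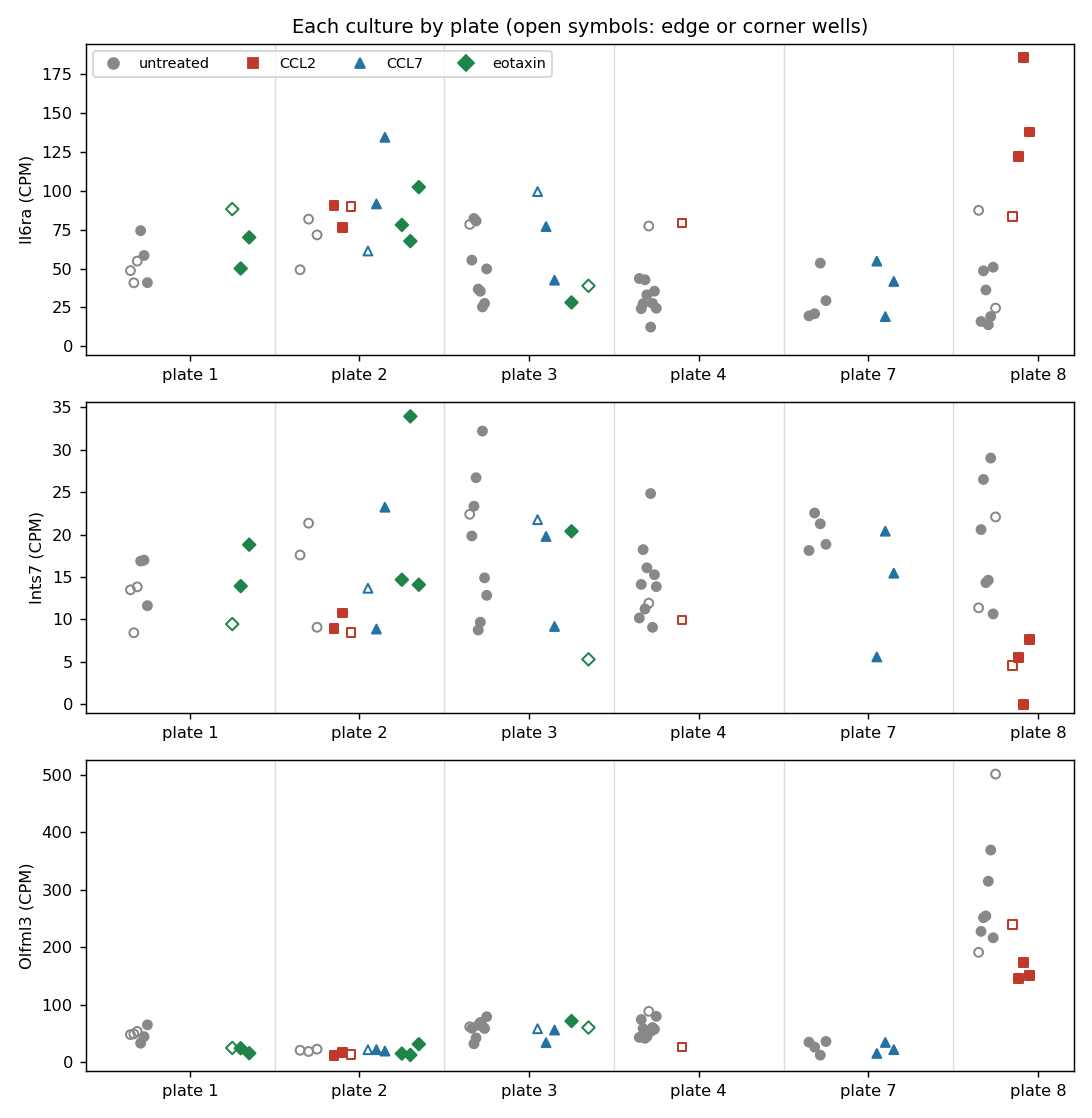
CPM of Il6ra, Ints7 and Olfml3 on the y axes in each of the 65 cultures, by culture plate on the x axis, with symbols by stimulus and open symbols for edge or corner wells. On plate 8 the Il6ra of 3 of 4 CCL2 cultures exceeds that of every untreated well and the Ints7 of all 4 lies below every untreated well, while on plate 2 both genes lie within or near the untreated range.

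Genes of the homeostatic state, the profile of unstimulated microglia, were low more often than high with CCL2. Of 18 tested members of a list of 20, 7 were lower and 0 higher at an unadjusted p under 0.05, where 4.19% of all genes were lower. None passed the adjusted threshold, and the median log2 fold change of the list was −0.14, against −0.01 over all tested genes. The 7 were Olfml3, the Fc receptor-like gene Fcrls (−0.59), C1qb, the selectin ligand Selplg (−0.40), Csf1r (−0.37), Trem2 (−0.29) and C1qa (−0.21). Other members of the list had values near 0 or above it, among them the complement gene C1qc (−0.07), the purinergic receptor gene P2ry12 (0.23) and Gpr34, a lysophosphatidylserine receptor (0.42).

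Olfml3 (chromosome 3, 103722222 to 103738001) was at 11.4, 17.6 and 13.4 CPM with CCL2 on plate 2 against 18.7 to 22.8 CPM untreated, at 27.2 CPM on plate 4 against 41.7 to 88.6, and at 239, 145, 174 and 151 CPM on plate 8 against 191 to 502. It lay below the whole untreated range on plates 2 and 4 and in 3 of 4 cultures of plate 8. Fcrls ranged from 102 to 209 CPM on plate 2 against 153 to 280 untreated, was at 192 CPM on plate 4 against 214 to 579, and ranged from 689 to 1258 CPM on plate 8 against 506 to 1692. Selplg was at 119 to 172 CPM on plate 2 against 178 to 221 untreated, at 134 CPM on plate 4 against 136 to 239, and at 81.9 to 133 CPM on plate 8 against 98.9 to 198. For Fcrls and Selplg the groups overlapped on plate 8. Averaged over the 18 genes, the difference from the untreated mean of the plate was −0.44 and −0.45 in CCL2 replicates 4 and 5, both rim wells, and between −0.10 and 0.14 in the other 6 cultures. With the rim position as a term 6 members remained lower at that threshold, and without the plate term 4 were lower and 4 higher.

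With CCL7, 0 of 11867 genes passed the adjusted threshold in limma (0%), and 514 were past 0.05 before adjustment (4.33%). Nup107 had the smallest adjusted p, 0.390. It encodes a scaffold protein of the nuclear pore and was at 12.8, 37.1 and 45.1 CPM on plate 2, at 18.8, 15.5 and 22.9 CPM on plate 3, and at 46.2, 39.1 and 14.9 CPM on plate 7, where untreated wells ranged from 8.5 to 11.4, from 2.8 to 23.8 and from 6.6 to 21.4 CPM. Every CCL7 culture was above the untreated mean of its plate (126 genes, 1.06%), and the log2 fold change was 1.14 ± 0.26. Tlr6, a partner of TLR2 in sensing bacterial lipoproteins, was above it in 9 of 9 cultures as well (0.93 ± 0.27). Trex1, a cytosolic DNA exonuclease, was above it in 7 of 9 (0.78 ± 0.22), and Carm1, an arginine methyltransferase, was below it in 8 of 9 (−1.43 ± 0.38). The adjusted p was 0.971 for these 3. Other genes of small p were the tRNA splicing subunit Tsen15 (0.97) and Gm9085 (1.88), with 8 of 9 cultures above, Tmed1 (−0.86), the haem enzyme Cpox (−0.73) and Rsad1 (−1.04), with 9 of 9 below (64 genes, 0.539%), and Gm26751 (−1.14), with 7 of 9 below.

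Of the homeostatic genes none was past an unadjusted p of 0.05 with CCL7, and log2 fold changes ran from −0.23 to 0.37. Of 14 tested inflammatory genes, 3 were higher at that threshold, where 2.78% of all genes were. They were Nfkbia, the inhibitor that NF-kB induces against itself (0.35 ± 0.14), Il1rn, the IL1 receptor antagonist (0.41 ± 0.19), and Nos2, the inducible nitric oxide synthase (0.49 ± 0.23). Nfkbia and Il1rn were above the untreated mean of the plate in 9 of 9 cultures and Nos2 in 6 of 9, and Nos2 averaged 2.78 CPM with CCL7 and 6.42 CPM untreated, so its sign turned without the plate term (−0.68). Below that mean in 9 of 9 cultures were Itgam, the CD11b integrin (−0.35 ± 0.14), 1 of 2 lower genes among 24 of the adhesion list, Rhoa, a small GTPase of the actin cytoskeleton (−0.44 ± 0.17), the 1 lower gene among 22 G protein and effector genes, and Atf3 (−0.31 ± 0.15), the 1 lower gene among 22 immediate early genes, where 1.55% of all genes were lower. None of these passed the adjusted threshold.

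With eotaxin, 0 of 11867 genes passed the adjusted threshold in limma (0%). At an unadjusted p under 0.05 there were 507 (4.27%), and no adjusted p was below 0.997. Msrb1, a selenoprotein that repairs oxidised methionine, was at 76.3, 88.6 and 61.7 CPM on plate 1, at 109, 123 and 83.9 CPM on plate 2, and at 55.3 and 78.5 CPM on plate 3. Untreated wells ranged from 94.7 to 226, from 171 to 256 and from 54.6 to 250 CPM, so the groups were apart on plates 1 and 2 and overlapped on plate 3 (log2 fold change −0.77 ± 0.21). Socs2, a feedback inhibitor of cytokine receptors, was at 11.8, 8.7 and 10.4 CPM on plate 1, at 4.6, 15.3 and 7.8 CPM on plate 2, and at 17.5 and 28.2 CPM on plate 3. Untreated wells held 1.9 to 8.5, 0.9 to 22.0 and 1.5 to 19.4 CPM, and the log2 fold change was 1.17 ± 0.38, with 8 of 8 cultures above the untreated mean of the plate (184 genes, 1.55%). Below that mean in 8 of 8 (145 genes, 1.22%) were, besides Msrb1, the lipid transfer gene Stard7 (−0.91), Gramd1a (−0.72), Cdipt, which makes phosphatidylinositol (−0.49), and Hcls1, an actin regulator of blood cells (−0.36). The phosphate transporter Slc20a1 (0.65), the mitotic kinesin Kifc1 (1.2) and the exchange factor Dock8 (0.42) were above it in 7 of 8 and the inhibitory receptor Gp49a (0.33) in 6 of 8.

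With eotaxin, 5 homeostatic genes were lower at an unadjusted p under 0.05, where 2.81% of all genes were, and none passed the adjusted threshold. They were Gpr34 (−1.09 ± 0.38), Tmem119 (−0.69 ± 0.27), Olfml3 (−0.45 ± 0.18), C1qb (−0.26 ± 0.11) and C1qa (−0.23 ± 0.10). Tmem119, a membrane protein typical of microglia, was at 2.5 to 6.25 CPM on plate 1, 2.68 to 6.12 on plate 2 and 3.65 to 7.37 on plate 3, against 3.41 to 9.40, 1.63 to 7.10 and 3.15 to 35.5 CPM in untreated wells, and the groups overlapped on each plate. The count was 2 without eotaxin replicate 8, a rim well of plate 3 whose list mean was 0.56 below the untreated mean of the plate, and also 2 without plate 1 or without plate 3, and 3 without replicate 1 or 3.

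**Figure D3:**
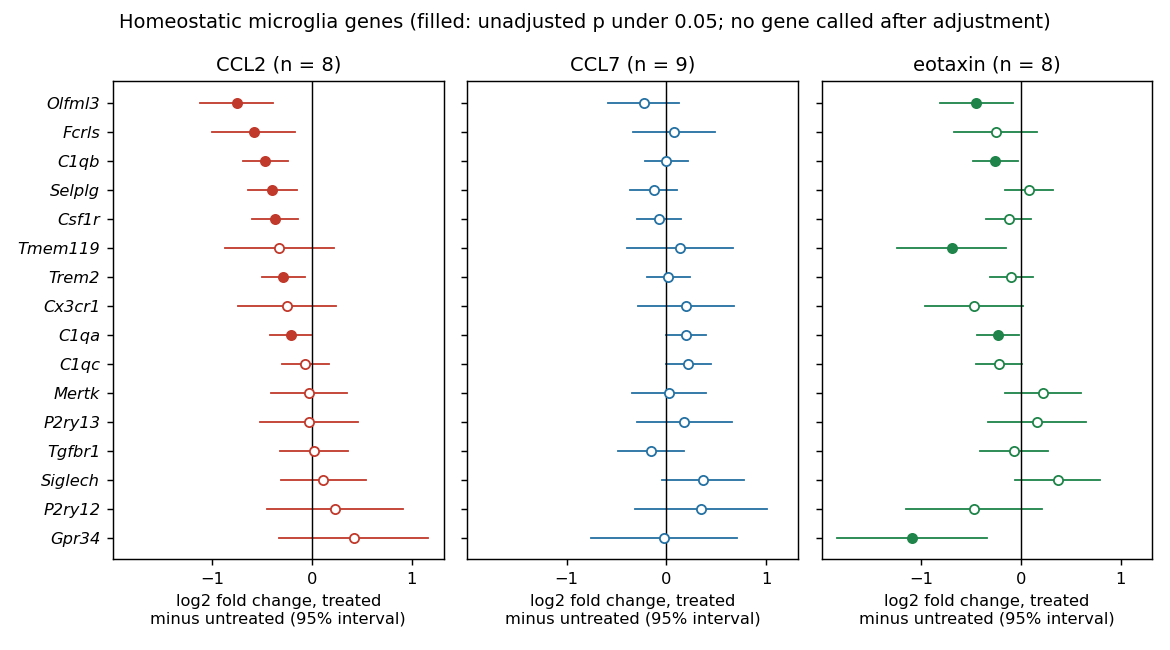
Log2 fold change on the x axis, treated minus untreated within plates, of 16 of the 18 homeostatic genes for each chemokine, with points for the limma estimate, bars for its 95% interval and filled points for an unadjusted p under 0.05. Filled points number 7 with CCL2, 0 with CCL7 and 5 with eotaxin, each to the left of 0.

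Other chemokine genes gave higher values with eotaxin. Of 12 tested, 4 were higher at an unadjusted p under 0.05, where 1.46% of all genes were: Ccl6 (0.32 ± 0.12) and Ccl9 (0.33 ± 0.16), CC chemokines of rodent macrophages, and Cxcl10 (0.74 ± 0.32) and Cxcl11 (0.82 ± 0.31), ligands of CXCR3 induced by interferon. Ccl6 averaged 187 ± 28.4 CPM (SD, n = 8) against 132 ± 43.1 (n = 40) and was above the untreated mean of the plate in 7 of 8 cultures. Cxcl10 averaged 7.23 ± 7.32 CPM against 17 ± 22.5, a lower mean than untreated although 7 of 8 cultures exceeded the untreated mean of their own plate, since untreated plates differed. Without the plate term 2 of the 12 were higher and 2 lower. Without eotaxin replicate 3 or 5 the count was 2, and without plate 1 or plate 2 it was 1. None passed the adjusted threshold.

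Interferon-stimulated genes in the eotaxin group rested on 1 culture. Eotaxin replicate 3, on plate 1 and with 2.40 M reads, was above the untreated mean of its plate in 17 of 17 genes, by a mean of 3.48 on the log2 scale. The antiviral gene Ifit1 was at 618 CPM there and at 21.5 to 86.9 CPM in the other 7 cultures. The list median was 0.32 over all 8 cultures and −0.10 without that culture. With CCL7 the same 17 genes split by plate: 16 or 17 of them were above the untreated mean in each of the 3 cultures of plate 3, by 0.52 to 0.92 on average, while on plate 7 the means were −0.69, −0.71 and −0.12. With CCL2 the means ranged from −0.36 to 0.34.

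Cell cycle genes tracked the well position. Averaged over 18 genes, the 3 lowest values with CCL2 and CCL7 were −2.46, −2.34 and −1.91 in CCL2 replicates 4 and 5 and CCL7 replicate 4, and the lowest with eotaxin was −2.15 in replicate 8, each of them a rim well. Mki67, a protein of dividing cells, ranged from 0.252 to 31.4 CPM, with a median of 4.42, in the 7 chemokine wells at the rim and from 11.9 to 52.5 CPM, with a median of 18.6, in the other 18. In untreated cultures rim wells were lower than middle wells by 3.07 ± 0.36 on the log2 scale (limma, adjusted p = 1.46e-07; 10 against 30 cultures), and 14 of the 18 genes passed the adjusted threshold. With the chemokines 0 of the 18 did, and their median log2 fold change was −0.36 with CCL2, −0.01 with CCL7 and −0.11 with eotaxin.

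**Figure D4:**
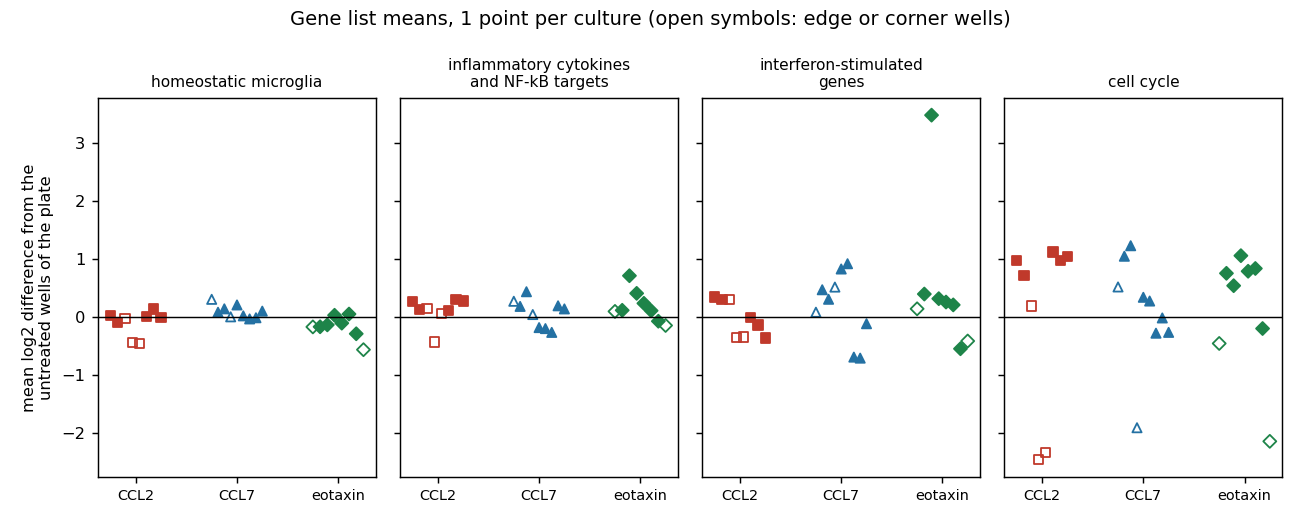
Mean difference from the untreated wells of the same plate on the y axis, on the log2(CPM + 1) scale, over the genes of 4 lists, 1 point per chemokine culture, by stimulus on the x axis and with open symbols for edge or corner wells. The lowest cell cycle means, down to −2.46, are open symbols, and 1 eotaxin culture stands at 3.48 for the interferon-stimulated genes.

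Downstream of the receptors, the machinery of chemokine signalling gave no call. Of 22 tested genes for inhibitory G proteins and their effectors, 3 were lower with CCL2 (4.19% of all genes were), 1 with CCL7 (1.55%) and 4 with eotaxin (2.81%), and 1 was higher with eotaxin (1.46%), at an unadjusted p under 0.05. Vav1, a guanine exchange factor of blood cells, had log2 fold changes of −0.42 ± 0.15 with CCL2 and −0.37 ± 0.15 with eotaxin, and Gnai2, the main inhibitory G alpha subunit of leukocytes, of −0.20 ± 0.09 with CCL2. Rhoa stood on opposite sides, at −0.44 ± 0.17 with CCL7 and 0.42 ± 0.18 with eotaxin. With library pool in place of plate these values shrank to −0.19 and 0.11. The difference between the 2 ligands was not tested, as the doses differ. Among 16 genes of receptor desensitisation, Grk4, a G protein-coupled receptor kinase, was the largest with CCL2 (0.93 ± 0.39, 8 of 8 cultures above the untreated mean of the plate), at a mean of 4.2 ± 1.58 CPM (SD). Of 22 immediate early genes, 2 were higher and 0 lower with CCL2 at an unadjusted p under 0.05 (3.19% and 4.19% of all genes were). They were Fosb (0.47 ± 0.23), at a mean of only 0.58 CPM, and Jun. The latter was at 131 ± 57.6 CPM with CCL2 against 78.8 ± 37.3 (0.60 ± 0.21, limma adjusted p = 0.470). None of these passed the adjusted threshold.

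Genes of other microglial states also stayed under the threshold. Of 17 tested genes of the disease-associated state, 1 was higher and 2 were lower at an unadjusted p under 0.05 with CCL2 (3.19% and 4.19% of all genes were), 1 higher and 2 lower with eotaxin (1.46% and 2.81%), and 0 with CCL7. With CCL2 these were Lpl, lipoprotein lipase (0.51 ± 0.21), Apoe, the main lipid carrier of the brain (−0.48 ± 0.15), and the adaptor gene Tyrobp (−0.26 ± 0.12). With eotaxin they were Csf1, the growth factor of macrophages (0.97 ± 0.37), the lysosomal protease gene Ctsd (−0.54 ± 0.22) and Tyrobp (−0.30 ± 0.12). Of the amino acid response, hypoxia and glycolysis genes, Sesn2 (0.78 ± 0.34) and Asns (0.61 ± 0.30), which respond to amino acid shortage, were higher with CCL2 at an unadjusted p under 0.05, of 17 tested, where 3.19% of all genes were. Il1a, an alarm cytokine, was at 1.03 ± 0.43 with eotaxin and above the untreated mean of the plate in 8 of 8 cultures, and at −0.03 without the plate term. Among markers of other cell types, 1 of 4 tested oligodendrocyte genes and 1 of 3 tested astrocyte genes were higher with CCL7 at an unadjusted p under 0.05. Of all genes, 2.78% were. They were the myelin gene Mag (1.06 ± 0.37) and the astrocyte gene Aldh1l1 (0.80 ± 0.36), each with a limma adjusted p of 0.971. With library pool in place of plate Mag was at 0.60 and Aldh1l1 at 0.84. Of the 10 genes of the oligodendrocyte list, 4 had a median above 5 CPM over the 65 cultures. They were Mbp (32.3 CPM), Cnp (19.9), Cspg4 (19.2) and Mag (8.30), while Mog and Olig2 were at 0 in all 65. The part of such cells in the CCL7 values was not tested.

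The 4 markers that respond to LPS and IL4 were near their untreated level. Tnf had a median of 69.0 CPM with CCL2, 78.3 with CCL7 and 58.2 with eotaxin against 89.8 untreated, and log2 fold changes of −0.02 ± 0.23, 0.19 ± 0.22 and 0.09 ± 0.23. For Il1b they were 0.02, −0.48 and 0.49, for Arg1 −0.10, 0.16 and −0.13, and for Retnla 0.20, 0.25 and 0.05, with intervals reaching at most 1.22 from 0 in either direction. In a fit of all stimuli given for 24 h, Tnf had a log2 fold change of 3.95 with the higher dose of LPS (18 cultures) and Arg1 of 6.76 with IL4 (11 cultures), and 7040 (49.5%) and 734 (5.17%) of 14208 genes passed the adjusted threshold. The numbers of cultures differ from those of the chemokines.

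With the 3 chemokines pooled, 25 against 40 cultures, 0 genes passed the adjusted threshold in limma (0%). At an unadjusted p under 0.05 there were 572 (4.82%), 282 higher (2.38%) and 290 lower (2.44%), and the smallest adjusted p was 0.675. The comparisons share their untreated wells, so the separate results are not independent. The median SE of a log2 fold change was 0.188, against 0.284, 0.275 and 0.284 for CCL2, CCL7 and eotaxin, and the 95% interval lay within 2-fold for 95.8% of genes, or 98.2% of those above a mean of 10 CPM. Il6ra had the smallest p of the higher values (0.69 ± 0.17, 19 of 25 cultures above the untreated mean of their plate), with 1.27 from CCL2, 0.59 from CCL7 and 0.22 from eotaxin. Olfml3 had the smallest p of the lower values (−0.48 ± 0.12, 18 of 25 below), with −0.75, −0.23 and −0.45. Ormdl2, a regulator of sphingolipid synthesis (0.63 ± 0.17), and Nab1, a corepressor of EGR factors (0.46 ± 0.13), were above the untreated mean in 23 of 25 cultures each, and Dync1h1, the dynein heavy chain, was below it in 23 of 25 (−0.33 ± 0.09). Lilra6 (0.68) was above it in 20 of 25, and Cd99l2 (−0.63) and the cyclin Ccnf (−0.87) were below it in 22 and 17 of 25. The adjusted p was 0.675 for these 8.

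Between CCL2 and CCL7, the pair with equal doses, 0 of 11867 genes passed the adjusted threshold in limma (0%), and 801 had an unadjusted p under 0.05 (6.75%), 274 higher with CCL2 (2.31%) and 527 lower (4.44%). Both ligands were present only on plate 2, with 3 cultures each, and elsewhere they were related through untreated wells. The smallest adjusted p was 0.452, for Rxrb, which was lower with CCL2 by a log2 difference of −0.84, with a 95% interval from −1.22 to −0.46. For Il6ra the difference was 0.68 (0.01 to 1.35), for Ints7 −1.02 (−1.73 to −0.31), for Olfml3 −0.52 (−0.996 to −0.05) and for Ccr1 −0.86 (−1.63 to −0.10). These intervals are not adjusted for the number of genes. Rxrb, Il6ra, Ints7 and Olfml3 had been named for their values with CCL2, which also enter this difference, so their intervals are no separate evidence. The interval lay within 2-fold for 49.7% of genes, so for the other genes a difference of 2-fold was within reach of the data.

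Module means gave no call. For 31 modules of co-expressed genes defined by the study, which drew on cultures that include these, the mean of log2(CPM + 1) was compared within plates by an exact 2-sided rank-sum test, corrected over 124 tests, and 0 passed for each chemokine and for the 3 together. These 31 were fewer than the modules that the paper kept as reproducible. The smallest uncorrected p were 0.0644 with CCL2, 0.0529 with CCL7 for BR_turquoise (148 genes, with many interferon-stimulated ones such as Mx1 and Ifit3), 0.0501 with eotaxin for BL_blue, which holds Fcrls (34 genes), and 0.0469 for TQ_blue (88 genes) with the 3 together. TQ_blue was above the untreated mean of the plate in 19 of 25 cultures, by 0.08 on average. The largest difference of any module was 0.265, with CCL7.

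CCL2 was also given with the lower dose of LPS. Against that dose alone, 7 cultures each on plates 4 and 8, 0 of 9293 genes passed the adjusted threshold in limma (0%), and 510 had an unadjusted p under 0.05 (5.49%), 168 higher (1.81%) and 342 lower (3.68%). Il6ra was at 23 to 51.5 CPM with both and at 8.96 to 101 CPM with LPS alone, a log2 fold change of −0.48 ± 0.40, and Ints7 had one of −0.11 ± 0.40. Of 15 tested homeostatic genes 0 had an unadjusted p under 0.05. The difference from CCL2 without LPS was not tested.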

How the data were processed

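RNA from single wells of cultured mouse microglia was made into 3′-end libraries (QuantSeq, with amplification of pooled, barcoded cDNA). The authors quantified reads with Salmon 0.7.1 on Ensembl build 81 transcripts, summed them per gene and deposited CPM, reads of a gene per 1e6 mapped reads with no length correction, after removing libraries under 1 M reads or with fewer than 6500 genes above 5; the submitters' processing notes name the build mm8. Values summed to about 1e6 per culture (998202 to 999835). Low values were whole multiples of 1 read for as few as 72.2% of genes in a culture, so counts were not recovered, and depth (1.09 to 24.8 M) is an estimate from the commonest low value. Plate, library pool, source ID and well type were taken from the header of the deposited file. Groups came from the labels. Replicates are wells that share source IDs and plates, are numbered in order of deposit, and the p-values measure the spread between wells.

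Genes above 5 CPM in at least 4 of the 65 cultures (11867 of 45581) were tested on log2(CPM + 1) with limma 3.58.1 in R 4.3.3, with group and plate as terms, an intensity trend and 2-sided p adjusted by Benjamini-Hochberg over all tested genes (threshold 0.05). Fold changes on this scale understate those of low genes. Means and SDs in CPM are not adjusted for plate. Modules were tested by exact 2-sided rank-sum tests within plates, with Bonferroni correction over 124 tests (Python 3.11.15, scipy 1.17.1). Scripts were tested on simulated data. The text names the ligand and receptor genes, up to 10 called genes in each direction, the 5 genes of smallest p above a mean of 5 CPM where fewer than 5 were called, the member of each list with the largest fold change, and Tnf, Il1b, Arg1 and Retnla. Genes used to tell sex were not named, other genes of the X chromosome were kept, and a few list members are not reported here. Other list members were named after their values were seen. The members and lists were chosen with earlier results of these data known. Positions are from GENCODE vM21 (GRCm38), an annotation other than the one the authors used. Alternatives covered the plate and pool terms, the samples in the fit, pseudocount, filter, normalization, trend and leaving out wells; leaving out a plate, the edge term and the 72 h pool term were added after seeing the data.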

Additional observations from a re-analysis of the deposited data

Results flagged for a closer look

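In 25 of 374 pairs of a gene and a chemokine group (6.68%), 1 culture lay far from the rest of its group by Dixon's criterion, which chance meets in about 1 in 20 groups. For 1 gene, Rhoa, every culture of a chemokine lay on one side of the untreated mean of its plate and every culture of another on the other side: the mean difference was −0.456 on the log2(CPM + 1) scale with CCL7 (9 of 9 below) and 0.398 with eotaxin (8 of 8 above). With library pool in place of plate, the fitted log2 fold changes of Rhoa were −0.19 with CCL7 and 0.11 with eotaxin. The doses differ, and the difference between the ligands was not tested.

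Eotaxin replicate 3 (plate 1, 2.40 M reads) held 3 of them: Ifit1 at 618 CPM against 21.5 to 86.9, the interferon-inducible gene Ifi204 at 302 CPM against 38.3 to 76.3, and the DNA exonuclease Trex1 at 31.3 CPM against 8.65 to 16.07. Eotaxin replicate 8, a rim well of plate 3, was low for the integrin Itga4 (12.9 CPM against 29.5 to 43.1), Lpl (1200 against 3210 to 7400) and the cholesterol exporter Abcg1 (38.3 against 55.8 to 72.6). Eotaxin replicate 5 (1.49 M reads) was high for Ccr3 at 10.0 CPM against 0 to 1.88 and low for Cpox at 9.27 against 18.7 to 34.4. Vav1 was at 36.7 CPM in eotaxin replicate 1, a rim well, against 53.6 to 72.6, and Csf1r at 4280 CPM in eotaxin replicate 7 against 2360 to 3080. The rest of a group included cultures of other plates. Replicate 7 was on plate 3, where Csf1r in untreated wells ranged from 3661 to 5704 CPM, so its value lay within the range of its plate.

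CCL2 replicate 4, a rim well and the single CCL2 culture of plate 4, was high for Cxcl1, a ligand that draws neutrophils, at 32.7 CPM against 0 to 2.51, for Cxcl10 at 22.9 against 2.77 to 7.19, for Ifit1 at 214 against 37.6 to 83.5 and for Nfkbia at 199 against 87.7 to 128. It was low for Lpl at 698 CPM against 4040 to 8700 and for Elmo1, an activator of Rac, at 12.1 against 36 to 88.1. CCL2 replicate 7 (plate 8, 3.07 M reads) held Ints7 at 0 CPM against 4.62 to 10.8 and Commd9 at 0.326 against 4.95 to 10.5. Grk4 was at 1.08 CPM in CCL2 replicate 8 against 3.40 to 6.14, and the XCL1 receptor gene Xcr1 at 10.6 CPM in CCL2 replicate 1 against 0 to 1.78.

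With CCL7, Mki67 was at 3.91 CPM and Nfkbia at 214 CPM in replicate 4, a rim well, against 17.39 to 37.1 and 114 to 150. Replicate 6 was low for Ndrg1, which responds to hypoxia, at 0.483 CPM against 10.4 to 34.7 and for Rhoa at 285 against 446 to 585, and replicate 7 for Tsen15 at 2.79 CPM against 9.80 to 25.7.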

How the results depend on the processing

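The number of genes changed with CCL2 at 24 h, 2 in the report, was 5 without a plate term, 0 with library pool as a term, 16 with all 24 h conditions in the fit (9 of them pseudogenes of Rps12, which share reads), 0 with a pseudocount of 0.25, 7 with no filter, 4 above a mean of 10 CPM and 1 without a trend. It was 8 without plate 2, 0 without plate 4 or plate 8, 0 with the edge position as a term, and 0 to 2 with 1 culture left out. The number changed with CCL7 at 24 h was 1 in the fit of all 24 h conditions, that with eotaxin 5 with no filter, and that with the 3 chemokines together 2 with untreated edge wells left out. Leaving those wells out left plate 2 with no untreated well. With 1 culture left out the number stayed at 0 for CCL7, eotaxin, the 3 together and CCL2 against CCL7. The 62 genes changed with eotaxin at 72 h became 0 without a plate term and 267 with library pool as a term, 26 of them shared. Of the 7 eotaxin cultures at 72 h, 3 were in a library pool without untreated wells. The other eotaxin wells were at the rim and the untreated wells of their pool in the middle, so the pool fit cannot tell stimulus from well position. The cause was not tested.

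Of 5038 values for single genes, 5009 kept their side of the threshold, 21 lost the call (Il6ra and Ints7 with CCL2), 8 gained one and 0 called values reversed. Among uncalled values 216 of 4992 (4.33%) changed sign. For Il6ra with CCL2 the log2 fold change ranged from 1.12 to 1.28 without 1 of CCL2 replicates 4 to 8 and was 1.29 with a pseudocount of 0.25. For Ints7 with CCL2 it was −1.70 with that pseudocount. C1qb with CCL2 passed with untreated edge wells left out (−0.58), a fit in which plate 2 had no untreated well. No paired analysis was possible because the labels give no replicate numbers. No module mean passed under any of the 4 alternatives.

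Plate and stimulus were only partly crossed, CCL2 on plate 4 was 1 culture, and 2 CCL7 cultures were in a library pool without untreated wells. In the shallowest culture 1 read was worth 0.918 CPM. Ccr2 and Ccr3 did not reach the level at which a gene was tested in the main fit, so their differences were not tested there.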

Other observations

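Eotaxin was also given for 72 h, to 7 cultures set against 25 untreated ones. In limma with plate as a term, 62 of 11018 genes passed the adjusted threshold (0.563%), 15 higher and 47 lower, and 1622 had an unadjusted p under 0.05 (14.7%). Olfml3 was at 67.3 to 295 CPM with eotaxin and at 24.4 to 254 CPM untreated, with medians of 132 and 49.4 CPM, and rose by 1.39 ± 0.29 on the log2 scale (adjusted p = 0.0190), where its value at 24 h was −0.45. Kifc1 fell by 1.69 ± 0.35 (adjusted p = 0.0171), where its value at 24 h was 1.2. The difference between the times was not tested. Of 17 cell cycle genes 6 were lower and 0 higher at an unadjusted p under 0.05, where 10.5% of all genes were lower and 4.2% higher, with a median of −1.40. On plate 6 the 4 eotaxin wells were at the rim and the 10 untreated wells were not, and on plate 10 the 3 eotaxin wells were in the middle and the 5 untreated wells at the rim, in another library pool, so within each plate stimulus and well position cannot be told apart.

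Rim wells of untreated cultures at 24 h had 50 genes higher and 142 lower than middle wells. Besides the cell cycle genes, of which Top2a was lower by a log2 difference of −2.73 (limma, adjusted p = 8.49e-08), 6 of 12 genes of the NRF2 and oxidative stress list were higher there, with a list median of 0.71. With the chemokines that list had medians of 0.16 for CCL2, 0.05 for CCL7 and −0.19 for eotaxin, and no member passed the adjusted threshold.

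Among lists not described above, 2 of 24 tested adhesion and motility genes were lower with each chemokine at an unadjusted p under 0.05, where 4.19% of all genes were with CCL2, 1.55% with CCL7 and 2.81% with eotaxin. With CCL2 these were the integrin Itga4 (−0.52) and Selplg, with CCL7 Itgam and the integrin Itgb1 (−0.25), and with eotaxin the actin regulators Vasp (−0.41) and Pfn1 (−0.33). Of 15 sterol and lipid genes, Srebf2 was lower with CCL2 (−0.34), and with eotaxin, where 1.46% of all genes were higher, Abcg1 was higher (0.58 ± 0.21, 8 of 8 cultures above the untreated mean of the plate). Of 8 genes of the IL4 response, Socs2 with eotaxin was the only one at that threshold. None passed the adjusted threshold.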
